A study of Homo sapiens with 8 samples.

Results

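A set of 7 genes tied to the identity of hepatic stellate cells and myofibroblasts were followed across a human stellate cell line and a human hepatoma line, each with and without an inhibitor of epigenetic silencing. They are VIM and DES, which encode intermediate filament proteins, TPM1, a tropomyosin gene, GREM1 and NGFR, which encode a secreted antagonist and a receptor, CRABP2, a retinoid-binding protein gene, and TCF21, a transcription factor gene. They make up 7 of 14884 gene symbols on the array, and the platform annotation gives them 11 of 16098 named probe sets. The genes were picked by symbol with their log2 values in all 4 groups already known, so every level and difference of these 7 genes below is a description and carries no test.

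Each of 8 samples, in 4 groups of 2, was hybridised to its own Affymetrix whole-transcript array. LX2 is an established line of human hepatic stellate cells, and HepG2 is an established line of human hepatocellular carcinoma. The groups were LX2 with CM272 at 400 nM for 48 h, LX2 with vehicle (0.1% DMSO) for 48 h, HepG2 with CM272 at 400 nM for 48 h, and HepG2 with vehicle (0.1% DMSO) for 48 h. CM272 inhibits both G9a, a histone methyltransferase, and DNMT1, the maintenance DNA methyltransferase. LX2 was kept with 2% serum and HepG2 with 10%, so line and serum cannot be told apart. Values are the deposited log2 expression values, n is 2 arrays in every group, and the labels do not state whether replicates were cultured separately. The p-values below therefore measure only the spread between these samples, which may be technical.

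In healthy liver, stellate cells store vitamin A, and after injury they turn into contractile, collagen-producing myofibroblasts. Vimentin marks cells of mesenchymal origin, and desmin is a filament protein of muscle that also marks stellate cells, best known from rodent liver. Tropomyosin stabilises actin filaments in the contractile apparatus. Gremlin-1 binds bone morphogenetic proteins (BMPs) and blocks their signal, the receptor p75 (NGFR) binds neurotrophins, CRABP2 carries retinoic acid to its nuclear receptors, and TCF21 is a basic helix-loop-helix factor of mesenchymal development that is known from quiescent stellate cells.

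The arrays of a group agreed least in LX2 with CM272, where 1504 of 48416 probe sets differed by more than log2 1 between both arrays, against 392 in LX2 control, 632 in HepG2 with CM272 and 457 in HepG2 control. The lines were checked by their markers. All 16 measured hepatocyte markers lay over log2 4 in HepG2 control, with ALB at 13.24 and 13.25, against 3.52 and 3.65 in LX2 control. Of 20 stellate and fibroblast markers only 9 had a symbol in the annotation used (COL1A1, ACTA2 and PDGFRB did not). In LX2 control 5 of these 9 lay over log2 4 in both arrays, among them LOX, THY1 and TAGLN. The matrix genes DCN and LUM lay under log2 4 on all 8 arrays, LRAT, which makes the stored retinyl esters, reached 4.27 on 1 array only, and CYGB and FN1 were brighter in HepG2 than in LX2. In culture, fewer cells of a type and less RNA per cell cannot be told apart.

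The 7 genes did not share 1 pattern. VIM, GREM1 and TPM1 were far brighter in LX2 than in HepG2 and lower in LX2 with CM272 than in its control. CRABP2 was brighter in LX2 and higher with CM272, by 3.52-fold in LX2. NGFR and TCF21 were slightly higher with CM272 in both lines, and DES did not separate the lines. The 95% intervals included 0 for GREM1 in LX2 and for NGFR and TCF21 in HepG2. VIM, GREM1, TPM1, CRABP2 and, by a smaller margin, NGFR thus had a higher level in LX2 control than in HepG2 control, but DES did not. TCF21 lay under the brightness filter of log2 4 in LX2 control. In limma, 40.5% of all genes tested were called higher in LX2 control than in HepG2 control. Because the genes were chosen with these values known, their levels cannot test the label of identity genes.

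**Figure D1:**
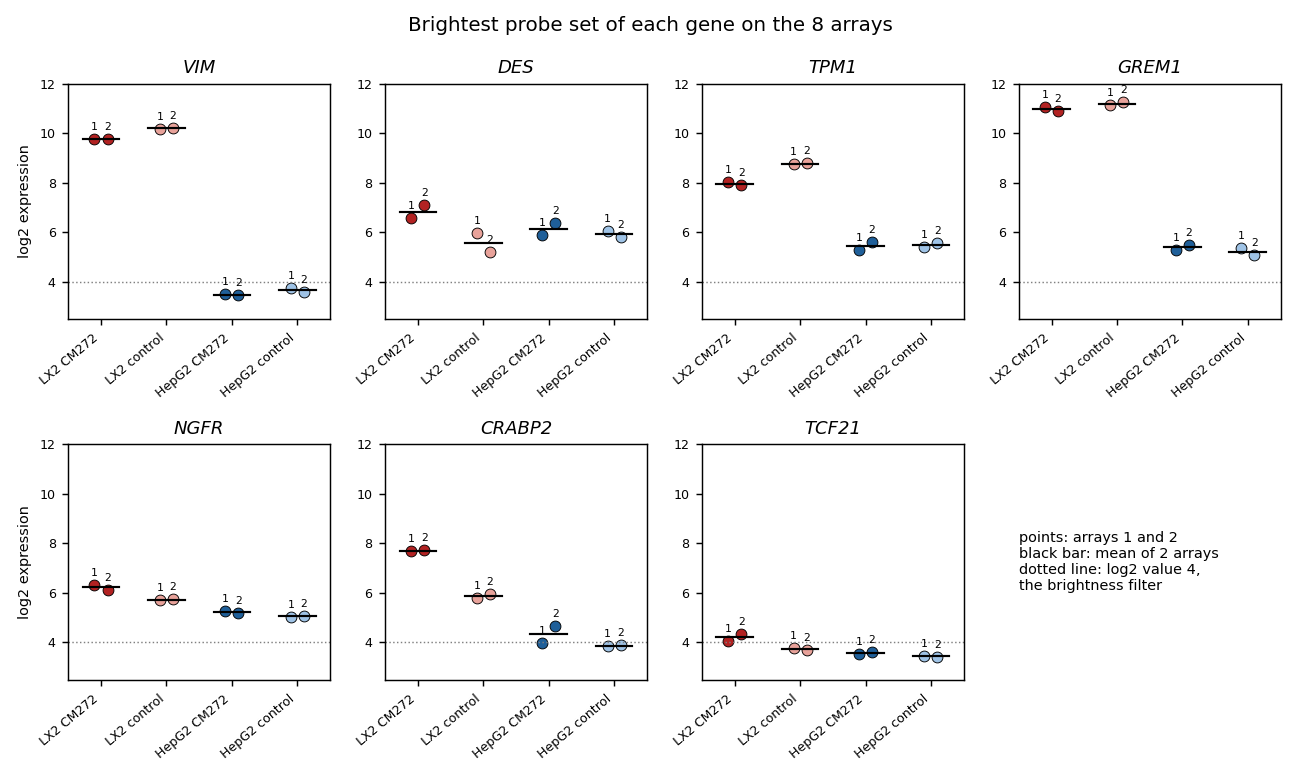
Log2 expression (vertical axis) of the brightest probe set of each gene in LX2 CM272, LX2 control, HepG2 CM272 and HepG2 control, with points for arrays 1 and 2 and a black bar at their mean. VIM, GREM1 and TPM1 stand far higher in both LX2 groups, CRABP2 steps up to 7.70 in LX2 with CM272, and TCF21 passes the dotted line at log2 4 only in LX2 with CM272.

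Promoter sequences are shown for some of the genes that were higher or lower in LX2 with CM272, because DNMT1 keeps methyl groups on CpG dinucleotides. RefSeq's promoter table (GRCh38.p14) held 5 of the 7 genes, without DES and NGFR, with 250 bases before and 50 bases after 1 listed start per gene. Other starts were not analysed here. CpG dinucleotides are in capitals. CRABP2, the gene furthest up, is read from the minus strand of chr1:156705735-156706034. TCF21, also higher but by less than DES and NGFR, is read from the plus strand of chr6:133888863-133889162. TPM1, the gene furthest down, is read from the plus strand of chr15:63048239-63048538, and VIM, also lower, from the plus strand of chr10:17227991-17228290.
CRABP2: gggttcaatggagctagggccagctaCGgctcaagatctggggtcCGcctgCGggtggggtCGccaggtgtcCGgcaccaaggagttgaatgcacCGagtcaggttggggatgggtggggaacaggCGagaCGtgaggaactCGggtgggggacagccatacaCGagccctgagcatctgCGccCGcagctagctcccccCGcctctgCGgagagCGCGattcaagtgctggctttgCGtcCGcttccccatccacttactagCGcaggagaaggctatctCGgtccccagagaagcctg
TCF21: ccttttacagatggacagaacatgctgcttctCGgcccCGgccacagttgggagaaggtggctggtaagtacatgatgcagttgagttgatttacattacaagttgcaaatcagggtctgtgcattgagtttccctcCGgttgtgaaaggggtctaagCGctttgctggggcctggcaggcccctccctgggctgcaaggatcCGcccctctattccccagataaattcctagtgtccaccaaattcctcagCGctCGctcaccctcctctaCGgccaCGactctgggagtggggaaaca
TPM1: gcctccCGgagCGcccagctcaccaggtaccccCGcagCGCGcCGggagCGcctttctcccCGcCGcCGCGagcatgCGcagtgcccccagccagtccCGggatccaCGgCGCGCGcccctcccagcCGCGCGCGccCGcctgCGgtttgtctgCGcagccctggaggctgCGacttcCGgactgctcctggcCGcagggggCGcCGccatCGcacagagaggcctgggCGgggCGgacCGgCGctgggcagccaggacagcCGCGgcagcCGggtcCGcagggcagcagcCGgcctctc
VIM: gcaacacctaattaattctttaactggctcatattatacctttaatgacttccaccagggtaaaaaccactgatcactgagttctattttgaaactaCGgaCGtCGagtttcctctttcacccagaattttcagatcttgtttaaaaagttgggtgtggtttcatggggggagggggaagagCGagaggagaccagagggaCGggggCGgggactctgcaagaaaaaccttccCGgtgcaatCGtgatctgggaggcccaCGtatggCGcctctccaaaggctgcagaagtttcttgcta

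The CpG content of these windows is given as a description. Expression arrays do not measure methylation, and its part in the response was not tested. The CRABP2 window held 20 CpGs and that of TCF21 9, against 39 for TPM1, 10 for VIM and 42 for GREM1. The median over 27305 promoter windows of the same length was 14, with quartiles of 3 and 28. The ratio of observed to expected CpGs was 0.66 for CRABP2, 0.40 for TCF21, 0.85 for TPM1, 0.58 for VIM and 0.99 for GREM1, against a median of 0.58. Motifs were searched on both strands. The GC box GGGCGG stood in 4 of the 5 windows (all but CRABP2), against 44.6% of all windows. Each of its copies itself holds a CpG, so it is not independent of the CpG counts. The letters CANNTG, the E-box, stood in the windows of TCF21 and CRABP2, 3 times in each, against 68.9% of all windows with at least 1. CCAAT stood in that of GREM1 alone (35.7% of all windows), TATAAA in none of the 5 (12% of all), and the CArG box, the site known for serum response factor, in none of the 5 (1.3% of all). No match says only that these letters are not in these windows.

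Of the filament genes, VIM was the brighter mark of LX2. Its brightest probe set (16702767) read 9.75 and 9.77 in LX2 with CM272, against 10.16 and 10.22 in LX2 control. In HepG2 it read 3.49 and 3.47 with CM272, against 3.73 and 3.60 in control. Untreated LX2 was the brightest group, then LX2 with CM272, then untreated HepG2 and last HepG2 with CM272, with no overlap between neighbours in that order. VIM lay 6.52 log2 higher in LX2 control than in HepG2 control (SE 0.13), a size that is not exact because both HepG2 groups lay under log2 4. With CM272 it was lower by -0.43 (SE 0.13) in LX2 and by -0.19 (SE 0.13) in HepG2.

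The other VIM probe sets were dimmer in LX2 and less sharply split between lines. Probe set 16712272 read 7.29 and 7.53 in LX2 with CM272, against 8.03 and 7.41 in LX2 control, so that these groups overlapped. Probe set 16712274 read 7.64 and 7.69 in LX2 with CM272, against 8.29 and 7.85 in LX2 control, with no overlap. In HepG2 the same probe set ran the other way, with 4.34 and 4.26 with CM272 against 4.08 and 4.19 in control. Averaging the 3 probe sets brought the VIM difference between LX2 control and HepG2 control to 4.44.

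Strand is a limit on these dimmer probe sets. Probe set numbers on this array follow the chromosomes strand by strand: where at least 70% of the 12 named probe sets on each side with a RefSeq strand lay on 1 strand, 96.9% of 10923 named probe sets belonged to a gene of that strand. VIM is on the plus strand, and its brightest probe set had 17 neighbours on the plus strand and 0 on the minus strand. The 2 dimmer ones each had 2 on the plus strand and 17 on the minus strand. What they read was not tested.

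DES gave different answers by probe set. The brightest (16908817) read 6.58 and 7.08 in LX2 with CM272, against 5.97 and 5.18 in LX2 control. It read 5.88 and 6.39 in HepG2 with CM272, against 6.03 and 5.80 in HepG2 control. The LX2 CM272 arrays lay above all others, and the remaining groups overlapped. The difference with CM272 in LX2 was 1.25 (SE 0.28), and it was 0.86 without LX2 control replicate 2 and 1.64 without LX2 control replicate 1, the 2 arrays that stood 0.79 apart. Its neighbours in number lay mostly on the minus strand (17 against 1). The promoter table gave no strand for DES, and the alternative restricted by strand took it as a plus-strand gene. What this probe set reads was not tested. It still stands for DES in the fit, the counts and the nearest genes. The second DES probe set (16891261), with 20 neighbours on the plus strand and 0 on the minus strand, read 5.05 and 5.0 in LX2 with CM272, against 4.49 and 4.61 in LX2 control, a difference of 0.48. In HepG2 it read 4.64 and 4.28 with CM272, against 4.86 and 4.47 in control. The 2 probe sets thus shared a higher level in LX2 with CM272, with a log2 step 2.63 times as large in the brighter one, and neither separated LX2 control from HepG2 control. Of the muscle markers, which could have been read with DES, 7 of 14 were measured. Their mean, with the lower array first, was 4.17 and 4.55 in LX2 with CM272 and 4.25 and 4.34 in LX2 control.

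**Figure D2:**
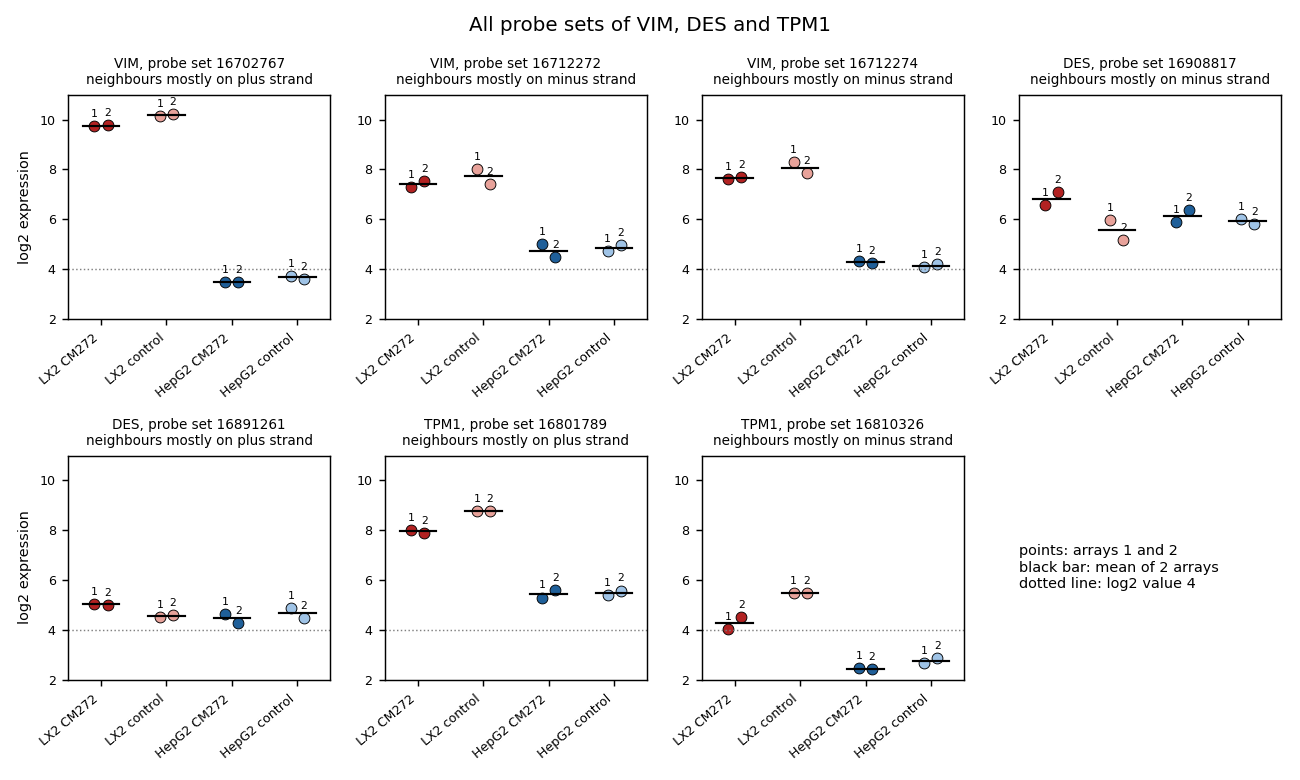
Log2 expression (vertical axis) of all 3 VIM, 2 DES and 2 TPM1 probe sets in the 4 groups, with points for arrays 1 and 2, a black bar at their mean and, above each panel, the strand on which most neighbouring probe sets lie. Both TPM1 probe sets are lower in LX2 with CM272 than in LX2 control, while the step in DES is 1.25 in one probe set and 0.48 in the other.

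TPM1 was lower in LX2 with CM272 in both of its probe sets. The brightest (16801789) read 8.02 and 7.89 in LX2 with CM272, against 8.75 and 8.77 in LX2 control. It read 5.30 and 5.61 in HepG2 with CM272, against 5.41 and 5.58 in HepG2 control. Both LX2 groups stood apart from each other and above HepG2, whose groups overlapped. The difference with CM272 was -0.81 (SE 0.15) in LX2 and -0.04 (SE 0.15) in HepG2, a difference of the changes of -0.77 (SE 0.22). LX2 control lay 3.27 above HepG2 control (SE 0.15), a 9.64-fold gap. The second probe set (16810326), whose 21 neighbours with a strand all lay on the minus strand while TPM1 is on the plus strand, read 4.03 and 4.52 in LX2 with CM272, against 5.49 and 5.47 in LX2 control. That made a difference of -1.20 in LX2, and in HepG2 it lay under log2 4 on every array.

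GREM1 was a bright gene of LX2 that moved little with CM272. It read 11.05 and 10.90 in LX2 with CM272, against 11.12 and 11.26 in LX2 control. In HepG2 it read 5.30 and 5.47 with CM272, against 5.35 and 5.08 in control. The LX2 groups stood apart by a narrow margin and the HepG2 groups overlapped. GREM1 lay 5.98 higher in LX2 control than in HepG2 control (SE 0.15), 62.9-fold, while the difference with CM272 was -0.21 (SE 0.15, 95% interval -0.56 to 0.13) in LX2 and 0.17 (SE 0.15) in HepG2.

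NGFR differed by small steps. It read 6.33 and 6.11 in LX2 with CM272, against 5.71 and 5.75 in LX2 control. In HepG2 it read 5.29 and 5.19 with CM272, against 5.04 and 5.06 in control. No group overlapped its neighbour in the order LX2 CM272, LX2 control, HepG2 CM272 and HepG2 control. The difference with CM272 was 0.49 (SE 0.14) in LX2 and 0.19 (SE 0.14) in HepG2, and LX2 control lay 0.68 above HepG2 control (SE 0.14).

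That gap between lines has to be set beside a shift of all genes. The median difference between LX2 control and HepG2 control was 0.27 over 12239 genes tested, and it was 0.01 after quantile normalization of the 8 arrays. NGFR then lay 0.41 above HepG2 control, TPM1 2.94, GREM1 5.83, CRABP2 1.77, VIM 6.28 and DES -0.60. The differences with CM272 kept their signs under that scaling in both lines for all 6 of these genes. TCF21 fell under the brightness filter after this scaling and was not tested there.

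CRABP2 had the widest difference with CM272 in LX2 of the 7 genes. It read 7.69 and 7.72 in LX2 with CM272, against 5.80 and 5.97 in LX2 control. In HepG2 it read 3.99 and 4.67 with CM272, against 3.85 and 3.88 in control. No groups overlapped, but in HepG2 the CM272 arrays lay 0.68 apart, replicate 1 close to control and replicate 2 above it. The difference with CM272 was 1.82 (SE 0.20) in LX2, between 1.73 and 1.90 when any 1 array was left out. In HepG2 it was 0.46 (SE 0.20), with 0.12 without HepG2 CM272 replicate 2 and 0.80 without replicate 1. LX2 control lay 2.02 above HepG2 control (SE 0.20), and the change in LX2 exceeded that in HepG2 by 1.35 (SE 0.29). Neither size is exact, because both HepG2 control arrays and HepG2 CM272 replicate 1 lay under log2 4.

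TCF21 was dim throughout. It read 4.07 and 4.33 in LX2 with CM272, against 3.76 and 3.70 in LX2 control. In HepG2 it read 3.55 and 3.62 with CM272, against 3.45 and 3.42 in control. The groups did not overlap, yet LX2 with CM272 was the only one over log2 4, and the gene entered the fit through that group alone. The difference with CM272 was 0.47 (SE 0.14) in LX2 and 0.15 (SE 0.14) in HepG2. LX2 control lay 0.29 above HepG2 control (SE 0.14), close to the median shift of 0.27 over all genes.

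**Figure D3:**
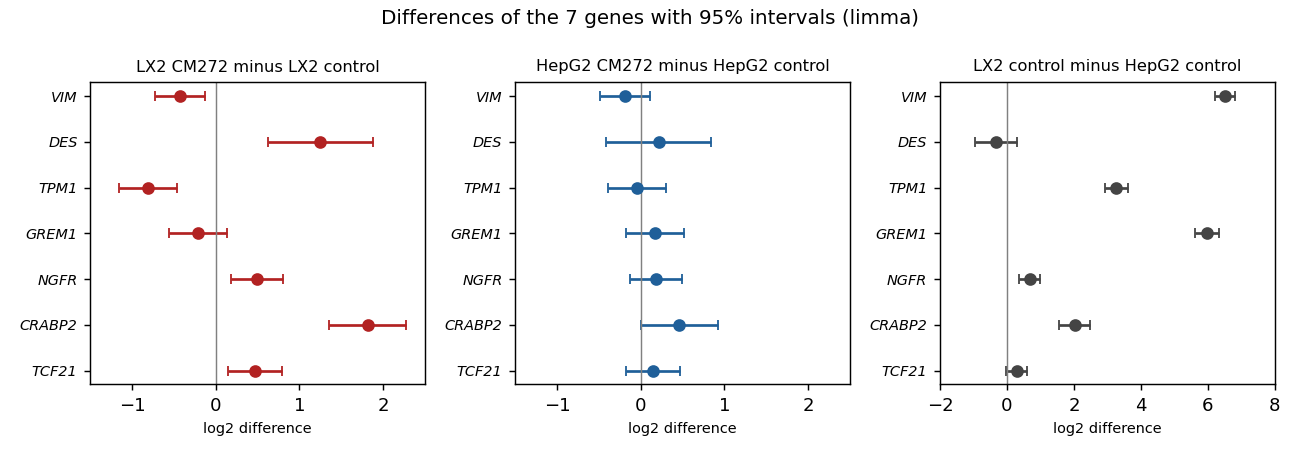
Log2 differences (horizontal axis) of the 7 genes for LX2 CM272 minus LX2 control, HepG2 CM272 minus HepG2 control and LX2 control minus HepG2 control, with 95% intervals from limma. In LX2 the differences with CM272 run from -0.81 for TPM1 to 1.82 for CRABP2, in HepG2 all lie between -0.19 and 0.46, and the third panel has a wider axis for the gaps of 6.52 for VIM and 5.98 for GREM1.

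Set against all genes, the counts of the 7 are these, and nothing is read from them because the same values chose the genes. With CM272 in LX2, 2 of 7 (CRABP2 and DES) were higher and 1 (TPM1) was lower past an adjusted p of 0.05 in limma, beside 8.42% of 12239 genes called, 3.79% higher and 4.63% lower. DES entered these counts by its probe set among minus-strand neighbours. The median difference of the 7 was 0.47, against -0.02 over all genes. All 7 had LX2 arrays that did not overlap between CM272 and control (4 higher and 3 lower), as had 52.1% of all genes tested. In HepG2 0 of 7 were called in limma, beside 0.00817% of all genes, and 4 of 7 had groups that did not overlap, beside 48.9%. For the difference of the changes 0 of 7 were called, beside 1.18% (0.825% higher and 0.36% lower). Between LX2 control and HepG2 control 5 of 7 were called, all higher in LX2, beside 58.1% (40.5% higher and 17.7% lower), and 6 of 7 did not overlap, beside 83.4%.

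Related genes outside the 7 were tested in 7 lists of their pathways, 149 genes in all after the brightness filter, out of 249 listed and 163 with a symbol. The lists were chosen with earlier results of these data known, so their counts and p-values are not independent of those results. In LX2 with CM272, 6 rose and 5 fell (7.38% called, beside 8.42% of all genes), with a median of -0.06 against -0.02 over all genes. In limma with Benjamini-Hochberg adjustment over 12239 genes, 2 of these 11 calls, SNAI1 and RELN, were left without LX2 control replicate 1 and likewise without replicate 2. The number of calls was 5 and 6 without HepG2 control replicates 1 and 2, and 19 and 25 without LX2 CM272 replicates 1 and 2, of which 8 and 10 were among the 11. Over all alternatives the call of NDFIP1 was lost in 12 of 17, KRT19 in 10 of 17, BCO2 in 8 of 16, RAI14 in 8 of 17, IGFBP3 in 7 of 16, LMNB1 in 7 of 17, SMURF2 in 5 of 17, GATA4 in 3 of 17 and BAMBI in 2 of 17, and those of SNAI1 and RELN in 0 of 17. Between the untreated lines 78 of the 149 were higher in LX2 and 31 lower (73.2% called, beside 58.1% of all genes). Over all genes tested 40.5% were higher and 17.7% lower. KRT80, MYOCD, FSTL1, CHRDL1, BDNF, TBX18 and ETS1 lay under log2 4 on both HepG2 control arrays and DDR2 on 1 of them, so the sizes of their differences below are not exact. The means of endothelial, hepatocyte, leukocyte and epithelial markers were also slightly higher in LX2 with CM272, while those of muscle markers overlapped. The mean over the 9 stellate and fibroblast markers was lower, at 5.50 and 5.52 with CM272 against 5.60 and 5.65 in LX2 control. Single markers went different ways. CD14 read 6.41 and 6.25 with CM272 against 5.18 and 5.25 in control, and TIE1 read 5.62 and 5.53 against 5.73 and 6.01. The medians of whole arrays were 4.54 and 4.45 with CM272, against 4.42 and 4.43 in control. All marker means in this paragraph give the lower array first and the higher one second, not the order of replicates. In LX2 with CM272 the higher mean was that of replicate 1 in each list, the array that also had the higher median. The mean over 12 endothelial markers was 4.96 and 5.14, against 4.77 and 4.78 in control, and that over 16 hepatocyte markers 4.0 and 4.12, against 3.90 and 3.93. Over 8 leukocyte markers it was 5.13 and 5.28, against 5.0 and 5.09, and over 8 epithelial markers 4.89 and 5.18, against 4.76 and 4.85. Their part in the results was not tested.

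Of 39 contractile and actin-binding genes listed besides TPM1, 21 were tested, and ACTA2, CNN1, MYL9 and MYH11 were among the others, which had no symbol in the annotation used. Of the 21 tested 0 were called in LX2 with CM272 in limma. An unadjusted p under 0.05 was reached by 2 that were higher and 7 that were lower. The share of all genes at that unadjusted threshold was not counted, so nothing is read from this split. The median of the 21 was -0.22, against -0.02 over all genes. With the filter at log2 6, or with a trended robust prior, 1 was higher and 1 lower. Leaving out replicate 1 of LX2 with CM272 gave a median of -0.25 and 1 gene called lower, and leaving out its replicate 2 gave -0.11 and 1 gene called higher. SRF, the serum response factor gene, differed by 0.50 (SE 0.15, limma adjusted p = 0.0737) and TMOD3, a cap of actin filaments, by -0.48 (SE 0.18, limma adjusted p = 0.127). The tropomyosin paralogs TPM4 and TPM2, singled out after their values were seen, differed by -0.43 (SE 0.13) and -0.06 (SE 0.22). Between the untreated lines 14 of the 21 were higher in LX2 and 1 was lower (71.4% called, beside 58.1% of all genes). The higher ones included TGFB1I1, a focal adhesion protein gene (5.0, SE 0.16), MYOCD, the gene of the smooth muscle coactivator myocardin (3.45, SE 0.16), and TPM2 (2.92, SE 0.22).

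Among 14 intermediate filament genes KRT19 rose in LX2 with CM272 (0.67, SE 0.15, limma adjusted p = 0.031) and LMNB1, a nuclear lamin, fell (-0.58, SE 0.13, limma adjusted p = 0.0285). KRT19, a keratin of bile duct cells, read 4.75 and 5.06 in LX2 with CM272, against 4.32 and 4.15 in LX2 control. The simple-epithelium keratins KRT18 and KRT8, singled out after their values were seen, differed by -0.49 and -0.46 and did not pass. Between the untreated lines 6 were higher in LX2 and 3 lower (64.3% called, beside 58.1% of all genes). KRT80 (2.60, SE 0.17) and DST, a cytolinker (1.85, SE 0.15), were higher and KRT19 lower (-2.52, SE 0.15).

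The retinoid genes did not move with CRABP2. Of 15 tested, BCO2, a carotenoid-cleaving enzyme, rose in LX2 with CM272 (0.77, SE 0.18, limma adjusted p = 0.034) and RAI14, an actin-associated protein first found as induced by retinoic acid, fell (-0.65, SE 0.15, limma adjusted p = 0.03). The median was -0.04. Between the untreated lines 4 were higher in LX2, among them RAI14 (2.90, SE 0.15), and 6 lower (66.7% called, beside 58.1% of all genes). The lower ones included TTR, the plasma carrier of retinol-binding protein (-6.19, SE 0.22), and PLIN2, a lipid droplet coat protein (-2.47, SE 0.16).

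Of 26 BMP pathway genes BAMBI, a decoy receptor that dampens TGF-beta and BMP signals, rose in LX2 with CM272 (0.96, SE 0.14, limma adjusted p = 0.00673). It read 7.04 and 6.96 with CM272, against 6.01 and 6.06 in control. SMURF2, a ubiquitin ligase of the same pathways, fell (-0.82, SE 0.17, limma adjusted p = 0.0224). Between the untreated lines 11 were higher in LX2 and 8 lower (73.1% called, beside 58.1% of all genes). Among the higher ones were FSTL1 (5.09, SE 0.13), the co-receptor ENG (4.42, SE 0.26) and CHRDL1, a BMP antagonist (3.71, SE 0.17).

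Of 15 neurotrophin pathway genes 0 rose in LX2 with CM272 and NDFIP1, an adaptor of ubiquitin ligases, fell (-0.52, SE 0.13, limma adjusted p = 0.0387). Untreated LX2 was higher than untreated HepG2 for 11 and lower for 1 (80% called, beside 58.1% of all genes). The higher ones included BDNF, a ligand of the NGFR protein (2.94, SE 0.17), with SHC1 (1.62, SE 0.17) and ARHGDIA (1.57, SE 0.13).

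Among 34 transcription factor genes of stellate and mesenchymal cells, SNAI1 rose in LX2 with CM272 (3.86, SE 0.15, limma adjusted p = 1.35e-06) and GATA4, which restrains fibrogenic activation in mouse liver, fell (-0.89, SE 0.15, limma adjusted p = 0.0108). GATA4 read 5.32 and 5.13 with CM272, against 6.01 and 6.23 in control. The E-box partners of TCF21, namely TCF3, TCF4 and TCF12, singled out after their values were seen, differed by -0.01, -0.17 and -0.12. Untreated LX2 was higher than untreated HepG2 for 19 and lower for 6 (73.5% called, beside 58.1% of all genes). Among the higher ones were TBX18 (5.88, SE 0.18), SNAI2 (5.56, SE 0.17) and ETS1 (5.33, SE 0.18). Of 24 surface, secreted and other stellate markers, RELN (3.93, SE 0.14, limma adjusted p = 7.39e-07) and IGFBP3 (0.68, SE 0.16, limma adjusted p = 0.0323) rose in LX2 with CM272 and 0 fell. Between the untreated lines 13 were higher in LX2 and 6 were lower (79.2% called, beside 58.1% of all genes). IGFBP7 (5.01, SE 0.16) and DDR2, a collagen receptor (4.32, SE 0.16), were among the higher ones, and RELN was furthest down (-6.39, SE 0.14).

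**Figure D4:**
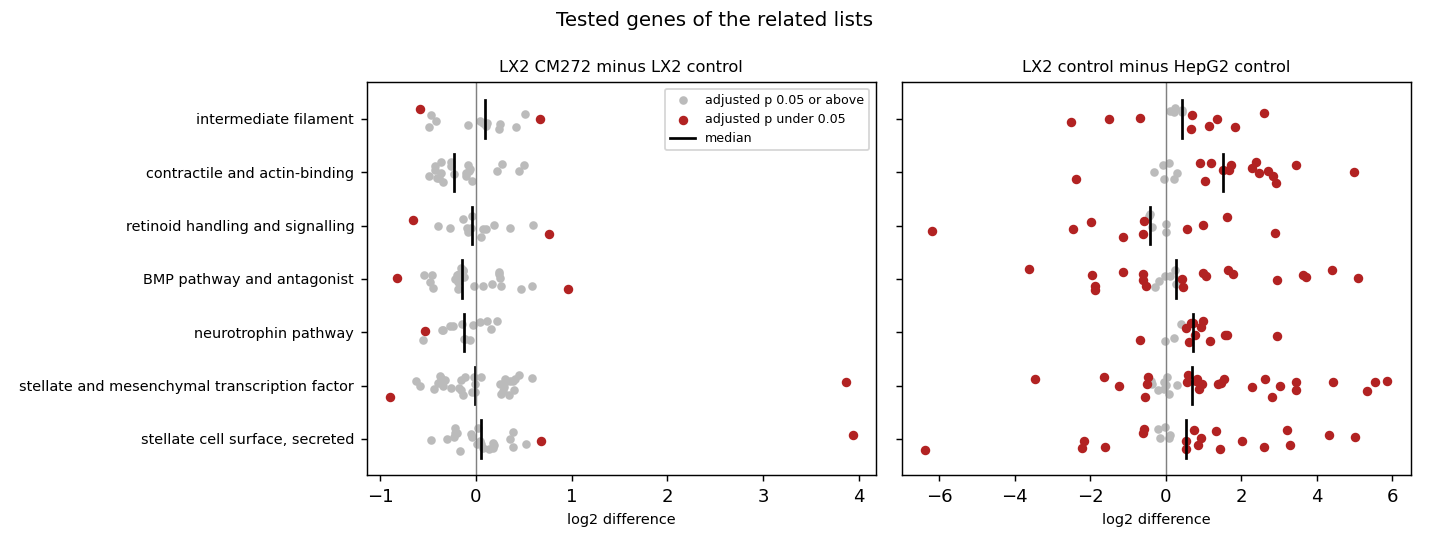
Log2 differences (horizontal axis) of the tested genes of each related list (rows) for LX2 CM272 minus LX2 control and for LX2 control minus HepG2 control, with red points past an adjusted p of 0.05 in limma, grey points not past it, and a black bar at the list's median. With CM272 in LX2, 11 of 149 genes are red (7.38%, beside 8.42% of all genes), and most list medians lie near 0, from -0.22 to 0.09. Between the untreated lines 109 are red (73.2%, beside 58.1% of all genes).

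In HepG2, CM272 left the related genes without a call. In limma 0 of 149 were called, beside 1 of all 12239 genes. An unadjusted p under 0.05 was reached by 6 that were higher and 19 that were lower. The share of all genes at that unadjusted threshold was not counted here either, so nothing is read from this split. The largest contractile differences were those of TES (-0.75, SE 0.16) and PDLIM7 (-0.53, SE 0.16), and the largest retinoid ones those of PLIN2 (-0.77, SE 0.16) and PNPLA3 (0.72, SE 0.22). In the other lists FST (-0.61), HAMP (0.57), NTF4 (0.45), NDFIP1 (-0.42), KRT18 (-0.46), NES (-0.44), PPARG (-0.65), KLF6 (-0.60), ENTPD2 (-0.39) and ADRA1B (-0.30) lay furthest out. The difference of the changes between the lines passed limma for 3 of 149 genes (2.01%, beside 1.18% of all), SNAI1, RELN and GATA4.

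Genes with the profile most like each of the 7 were found by the distance between values centred on each gene's mean over the 8 arrays. The nearest to VIM was MME (distance 0.31, r = 0.9997 over 8 arrays), followed by DOCK10 and CD44, and the nearest to GREM1 was MAP7D3 (0.47, r = 0.9992), followed by DPYSL3 and AXL. For TPM1 it was SNHG18 (0.35, r = 0.9966), followed by SEL1L3 and DCLK1. These values share the wide gap between the lines. For CRABP2 the nearest was MICB (0.84, r = 0.99), followed by CABYR and FBXO32, all higher in LX2 with CM272. MICB averaged 10.11 in LX2 with CM272 and 8.81 in LX2 control, and 7.27 in HepG2 with CM272 and 6.98 in HepG2 control. For NGFR the nearest was GRIPAP1 (0.17, r = 0.99), followed by COX6A1 and NFE2L1, and for TCF21 PLTP (0.15, r = 0.99), followed by ANKRD2 and EFNB3. The brightest DES probe set was nearest to DLG5-AS1 (0.55, r = 0.94), followed by GPR19 and SENP8.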

How the data were processed

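Total RNA of 8 samples (4 groups of 2) was labelled and hybridised to Affymetrix whole-transcript arrays. The deposited log2 values were made by the authors with RMA, per the submitters' processing notes (its version and the genome build are not given in the sources used here). Array medians of these values ran from 4.19 to 4.54, so the arrays do not share 1 distribution, which bears on differences between the lines. Arrays give no counts, so the number of arrays limits the precision. Of 48416 probe sets, 16098 (33.2%) had 1 symbol, 0 of which needed an update against RefSeq. The brightest probe set on average stood for each of 14884 symbols, and 12239 genes over log2 4 in both arrays of at least 1 group were tested. All 7 genes passed that filter.

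One fit in limma 3.58.1 (R 4.3.3) held a mean per group (4 residual and 5.47 prior degrees of freedom), with Benjamini-Hochberg adjustment over 12239 genes, a threshold of 0.05 and two-sided tests. Compared were CM272 with control within each line, the difference of those effects (LX2 minus HepG2), and LX2 control against HepG2 control. An exact permutation test of 2 against 2 arrays cannot go below p = 0.333, so none was used.

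The 7 genes, the lists and the rules were chosen with earlier results of these data known. Named related genes were, per list and comparison, up to 3 past the threshold with the largest change, or, with none past it, up to 2 given as values, and the 3 genes nearest to each of the 7. Same-numbered arrays did not deviate together (correlations from -0.05 to 0.06), so the numbers were not taken as pairs. The alternatives were quantile normalization, other filters, array weights, a trended prior, each line alone, the mean over probe sets, a replicate block and each array left out. Restricting genes to probe sets among neighbours of their own strand was added after seeing the data. Figures were drawn with matplotlib 3.10.9.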

Additional observations from a re-analysis of the deposited data

Results flagged for a closer look

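The response to CM272 differed between the lines for 3 related genes by limma's test of the difference of the changes (LX2 minus HepG2). The lists that hold these genes were chosen with earlier results of these data known. SNAI1, an E-box repressor, differed by 4.04 (SE 0.22, limma adjusted p = 2.56e-05), with 10.01 and 9.97 in LX2 with CM272 against 6.30 and 5.96 in LX2 control, and means of 4.99 in HepG2 with CM272 and 5.17 in HepG2 control. RELN, which encodes the secreted protein reelin, differed by 3.65 (SE 0.20, limma adjusted p = 2.56e-05), with 8.71 and 8.52 in LX2 with CM272 against 4.59 and 4.77 in LX2 control, and means of 11.36 in HepG2 with CM272 and 11.07 in HepG2 control. GATA4 differed by -1.13 (SE 0.21, limma adjusted p = 0.0396), with means of 5.23 in LX2 with CM272 and 6.12 in LX2 control, and 5.53 in HepG2 with CM272 and 5.29 in HepG2 control. The GATA4 call was lost in 9 of 16 alternatives, with adjusted p between 0.0155 and 0.209 over them.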

How the results depend on the processing

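Differences of the 7 genes that moved by over 1 SD of the replicates were those of VIM and TPM1 with the mean over probe sets, VIM, TPM1 and NGFR with quantile normalization, and DES read from its second probe set (0.48 in LX2). The difference of DES in HepG2 was -0.20 there, against 0.22. With 2 arrays a group, leaving 1 out cannot move a group's mean by over 1 SD, and the filter, prior and block leave a difference as it is, so these settings say nothing about the stability of the 7. With 1 array left out, genes called numbered 55 to 2496 for CM272 in LX2, 0 to 1 in HepG2, 18 to 918 for the difference of the changes and 5684 to 7983 between untreated lines. Related genes numbered 2 to 25, 0 in every case, 2 to 10 and 94 to 116. In LX2, array weights gave 283 genes called (4 related) and each line alone 207 (3 related), against 1031 (11 related) in the fit of all arrays. The filter at log2 6 gave 18 related genes in LX2, 4 genes in HepG2, and 371 genes and 5 related genes for the difference of the changes. The trended prior gave 19 related genes in LX2, 4 genes in HepG2 and 286 for the difference. HepG2 had 5 genes with array weights and 2 with no filter, against 1, and the difference of the changes had 79 with no filter, against 145. With the replicate block, 807 genes (8 related) were called in LX2, 6 in HepG2, 71 for the difference and 7108 between lines. Fewer genes are tested under the stricter filter and fewer residual degrees of freedom remain with each line alone and under the block. For the other changes the cause was not tested. Of the named related genes past the threshold, none changed sign under a setting that gave a value. Brightness limits TCF21, and VIM and CRABP2 in HepG2, which lie near or under log2 4.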
